A study of Mus musculus with 2 samples.

Results

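The cells described here are the 1541 of 12805 mouse cortical neurosphere cells whose cell-cycle position θ lies between 0.75π and π, from 2.356 to under 3.142 rad. θ is the polar angle of a cell in a two-dimensional embedding of cell-cycle genes and was taken as the authors deposited it, so these cells were chosen by their own expression. This range of θ is called the arc. It was compared with the earlier arc from 1.571 rad (0.5π) to the lower bound and the later arc from the upper bound to 3.534 rad. Cell-cycle genes set θ, so differences of such genes between arcs are in part built into the choice of cells. The paper names *Top2a*, *Smc2* and *Smc4* among the genes of high weight. Single-cell RNA-seq data (10x Genomics Chromium) came from 2 replicate cultures of 1 condition, wild-type neurospheres grown from the dorsal telencephalon of C57BL/6 embryos (embryonic day 14.5) and fed with EGF and bFGF at 10 ng/ml each. Neurospheres are balls of dividing neural stem cells and progenitors in suspension, and what they hold is set by growth in these factors as well as by the tissue of origin. The arc held 993 of the 5748 cells of culture 1 (17.3%, exact 95% binomial interval 16.3 to 18.3%) and 548 of the 7057 cells of culture 2 (7.77%, 7.15 to 8.41%). There is no second condition, and cells of a culture are not replicates, so every difference was taken within a culture and is given as a description with no p-value.

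During S phase the genome is copied once from origins that were loaded with the MCM helicase in G1, and the supply of deoxynucleotides is raised for the time of synthesis. As replication ends, genes for chromosome condensation, the kinetochore and the spindle are switched on ahead of mitosis. Many S-phase genes are known targets of E2F factors, whereas many G2/M genes have CCAAT boxes and a cell-cycle genes homology region (CHR) in their promoters.

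The arc is known by 4 marker genes, and their promoters are shown because they differ in the kinds of motif they hold. *Rrm2* encodes the small subunit of ribonucleotide reductase, which makes deoxynucleotides, and lies on chromosome 12 from 24708241 to 24714146 (GRCm38, plus strand). *Pclaf* encodes a small protein that binds the replication clamp PCNA and lies on chromosome 9 from 65890237 to 65903266 (plus strand). *Tk1* encodes thymidine kinase, which salvages thymidine, and lies on chromosome 11 from 117815526 to 117826092 (minus strand). *Top2a* encodes DNA topoisomerase II alpha, which untangles replicated chromosomes, and lies on chromosome 11 from 98992943 to 99024189 (minus strand). *Cenpa*, the centromeric histone H3 variant, is shown as well, since of all genes it had the largest deficit in the arc against the later arc by the culture with the smaller difference. Each window runs from 250 bases before to 50 bases after the RefSeq start of the gene (build GRCm38.p6), 5′ to 3′ on the strand of the gene. Capitals mark matches on either strand to CCAAT, to the CHR letters TTTGAA or TTCGAA, and to the E2F-like letters TTCCCGC or TTGGCGC, and no matches overlap in these windows.
Rrm2, chr12:24708004-24708303, plus strand: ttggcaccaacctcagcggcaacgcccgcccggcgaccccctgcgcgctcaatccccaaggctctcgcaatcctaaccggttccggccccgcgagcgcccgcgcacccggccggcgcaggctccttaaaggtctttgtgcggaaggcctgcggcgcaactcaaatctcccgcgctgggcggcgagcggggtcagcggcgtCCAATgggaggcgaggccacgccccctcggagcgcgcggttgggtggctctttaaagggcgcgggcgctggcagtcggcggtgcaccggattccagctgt
Pclaf, chr9:65890073-65890372, plus strand: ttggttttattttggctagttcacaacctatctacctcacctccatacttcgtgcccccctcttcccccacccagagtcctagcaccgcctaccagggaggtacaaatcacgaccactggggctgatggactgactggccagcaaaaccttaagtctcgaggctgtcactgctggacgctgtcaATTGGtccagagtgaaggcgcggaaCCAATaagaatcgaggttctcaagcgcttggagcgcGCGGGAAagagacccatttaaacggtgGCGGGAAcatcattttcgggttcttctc
Tk1, chr11:117825965-117826264, minus strand: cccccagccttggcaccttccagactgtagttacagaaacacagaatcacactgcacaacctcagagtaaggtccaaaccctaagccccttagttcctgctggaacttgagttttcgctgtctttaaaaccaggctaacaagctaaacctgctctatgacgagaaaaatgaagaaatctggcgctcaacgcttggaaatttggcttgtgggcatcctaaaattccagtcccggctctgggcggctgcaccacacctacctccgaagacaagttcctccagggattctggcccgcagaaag
Top2a, chr11:99024140-99024439, minus strand: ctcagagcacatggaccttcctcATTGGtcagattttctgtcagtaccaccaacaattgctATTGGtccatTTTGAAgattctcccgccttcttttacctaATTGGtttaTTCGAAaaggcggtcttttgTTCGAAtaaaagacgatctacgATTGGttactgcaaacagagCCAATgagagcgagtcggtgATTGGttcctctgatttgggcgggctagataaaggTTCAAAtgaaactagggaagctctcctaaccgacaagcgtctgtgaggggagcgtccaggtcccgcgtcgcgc
Cenpa, chr5:30666636-30666935, plus strand: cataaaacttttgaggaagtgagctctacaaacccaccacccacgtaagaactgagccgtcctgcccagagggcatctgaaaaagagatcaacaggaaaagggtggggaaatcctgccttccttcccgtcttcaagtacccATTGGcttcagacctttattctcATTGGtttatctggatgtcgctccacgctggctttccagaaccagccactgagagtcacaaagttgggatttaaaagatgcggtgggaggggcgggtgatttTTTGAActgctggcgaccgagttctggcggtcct

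The *Top2a* window held 10 matches, of which 6 were CCAAT, 2 TTTGAA and 2 TTCGAA. The *Pclaf* window held 4, of which 2 were CCAAT and 2 TTCCCGC. The *Rrm2* window held 1 CCAAT, that of *Tk1* held none of these letters, and that of *Cenpa* held 2 CCAAT and 1 TTTGAA. Of the 27025 genes with a promoter window, 41.1% held CCAAT, 21.7% a CHR match and 7.79% an E2F-like match. A match to letters is a description of the sequence and not of binding.

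Cells of the arc held more UMIs than cells of the earlier arc in both cultures. In culture 1 the median total was 20253 UMIs per cell in the earlier arc, 22972 in the arc and 22822 in the later arc. In culture 2 these medians were 15732, 17141 and 18653. The mean log2 total of the arc exceeded that of the earlier arc by 0.20 in culture 1 and 0.14 in culture 2 (mean 0.17 ± 0.042, SD, n = 2), which is 1.15-fold and 1.10-fold. Against the later arc the cultures pointed in opposite directions, with differences of 0.019 in culture 1 and -0.094 in culture 2 (mean -0.038 ± 0.080, SD, n = 2). The mean turned to 0.054 when the later arc was given the width of the others and to 0.019 when all bounds were moved by 0.05π toward later positions. Total UMIs were not used to set the bounds, but θ comes from the same cells, and how much of the RNA of a cell was captured was not measured. The spread among cells of the arc, an SD of 0.50 and 0.44 log2 units in the 2 cultures, was larger than either difference.

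**Figure D1:**
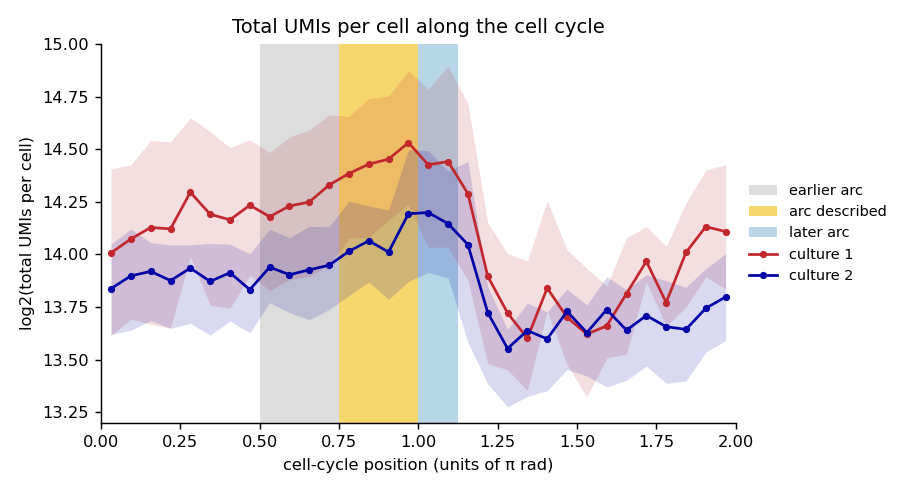
Mean log2 of total UMIs per cell (y axis) in 32 bins of cell-cycle position in units of π rad (x axis), for culture 1 (red) and culture 2 (blue), with bands from the first to the third quartile of cells. Within the shaded arc from 0.75π to π the bin means of culture 1 spanned 14.38 to 14.53 and those of culture 2 spanned 14.01 to 14.19.

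Inside the arc, the mean log2 total over 4 sub-arcs of equal width was 14.38, 14.43, 14.45 and 14.53 in culture 1. In culture 2 it was 14.02, 14.06, 14.01 and 14.19, so the last sub-arc was the highest in both cultures and the order of the others was not the same. The median number of detected genes was 3835 per cell in culture 1 and 3177.5 in culture 2. It was 3607 and 3074 in the earlier arc. Cells with over 2 times the median UMIs of their culture made up 5.94% of the arc in culture 1 and 4.93% in culture 2, against 3.24% and 2.68% of the earlier arc and 6.54% and 7.99% of the later arc. The authors had removed cells by a doublet score, and no caller was run here. Without the cells over 2 times the median, the mean difference to the earlier arc was 0.15 and that to the later arc was -0.020. Barcodes present in both cultures numbered 48, of which 2 belonged to arc cells in both.

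By the deposited Seurat calls, the arc lies across the passage from S to G2/M rather than within a single stage. The calls of SchwabeCC and cyclone differed from these. Seurat called 60.1% of arc cells S in culture 1 and 63.9% in culture 2, and called 39.9% and 35.8% G2M. The remaining 2 cells, both of culture 2, were called G1. Over the 4 sub-arcs the S share went from 100% to 93.4%, 51.2% and 9.03% in culture 1. In culture 2 it went from 99.3% to 89.8%, 54.8% and 9.63%. The name late S therefore fits the earlier sub-arcs by this method, and the cells are called the arc in what follows. SchwabeCC, which assigns 5 stages, left 45.2% and 38.5% of arc cells with no stage and called 22.5% and 22.8% G1.S and 23.4% and 31.9% S. It called 4.13% and 3.10% G2 and 0.705% and 1.09% G2.M. Cyclone called 66.4% and 69.5% of the same cells G1 and 23.4% and 25.4% G2M. The stages also come from expression, so none of these calls is an independent check of θ.

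The 4 marker genes are given as mean log2(value + 1) in the order earlier arc, arc, later arc, where a value is the linear expression the authors had normalized to a near-constant total per cell. One unit is a doubling of value + 1, so folds of low genes are understated, and levels were not compared between genes or between cultures. *Rrm2* was at 2.65, 3.17 and 2.77 in culture 1 and at 2.49, 3.03 and 2.67 in culture 2. *Pclaf* was at 3.11, 3.61 and 3.45 and at 3.36, 3.96 and 3.64. *Tk1* was at 0.86, 1.41 and 1.19 and at 1.01, 1.44 and 1.17. These 3 genes had their highest level of the 3 arcs in the arc. *Top2a* was at 1.51, 2.55 and 2.72 in culture 1 and at 1.59, 2.78 and 3.15 in culture 2, so its level in the arc lay between those of its neighbours. On the scale of mean values, the arc exceeded the earlier arc 1.45-fold and 1.46-fold for *Rrm2*, 1.45-fold and 1.54-fold for *Pclaf*, 1.84-fold and 1.59-fold for *Tk1* and 2.42-fold and 2.48-fold for *Top2a*.

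**Figure D2:**
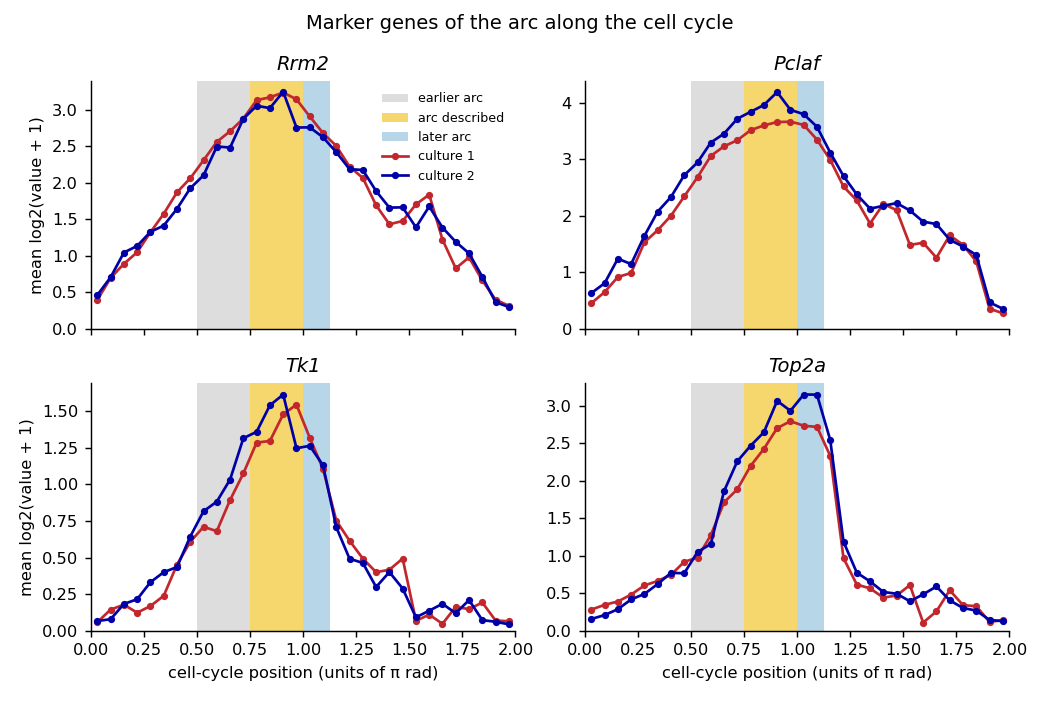
Mean log2(value + 1) of each marker gene (y axis) in 32 bins of cell-cycle position in units of π rad (x axis), for culture 1 (red) and culture 2 (blue). *Rrm2* was highest in the bin centred on 0.90625π in both cultures, at 3.24 and 3.25, and *Top2a* was highest at 0.96875π in culture 1 and at 1.03125π in culture 2.

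Nearly every arc cell had a value above 0 for *Rrm2* (993 of 993 cells, 100%, in culture 1 and 98.0% in culture 2) and for *Pclaf* (100% and 99.8%). *Top2a* was detected in 97.5% and 96.5% of arc cells and *Tk1* in 86.2% and 78.8%. As background, cells from 5.498 to 6.283 rad, the end of the range of θ, were used, of which Seurat called 99.9% and 99.3% G1. They had *Rrm2* in 36.0% and 23.9%, *Pclaf* in 28.2% and 29.4%, *Top2a* in 16.7% and 11.4% and *Tk1* in 7.49% and 4.45%. These background cells were shallower, with medians of 18437 and 13991 UMIs. All 4 markers were detected together in 84.9% of the arc cells of culture 1 (exact 95% interval 82.5 to 87.1%) and in 75.4% of those of culture 2 (71.5 to 78.9%). The share was 54.9% and 47.6% in the earlier arc, 75.7% and 68.0% in the later arc, and 0.671% and 0.254% in the background cells. Intervals cover counting error only.

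At the lower bound, cells within 0.02π outside it had a mean *Top2a* level of 1.84 and 2.39 and cells within 0.02π inside it one of 2.09 and 2.57. At the upper bound the level was 2.81 and 2.96 just inside and 2.78 and 2.99 just outside. *Rrm2* was at 3.01 and 2.94 just outside the lower bound and at 3.09 and 3.03 just inside it.

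In the comparison with the earlier arc, genes were counted as higher or lower where the difference of mean log2(value + 1) was at least 0.25 in size, with the same sign, in both cultures. Of 10666 genes, 82 were higher in the arc (0.769%) and 6 were lower (0.0563%). *Birc5* (survivin) and *Cdca8* (borealin), subunits of the chromosomal passenger complex, were higher by 1.15 and 1.14 and by 1.05 and 1.05 in the 2 cultures. *Cenpf*, a kinetochore protein, was higher by 1.05 and 1.09, and *Mki67*, which coats mitotic chromosomes, by 1.02 and 0.99. *Hmgb2*, a DNA-bending chromatin protein, was higher by 0.97 and 0.95. *Tpx2* and *Prc1*, which organise spindle microtubules, were higher by 0.92 and 0.94 and by 0.90 and 0.89. *Ube2c*, the ubiquitin-conjugating enzyme of the anaphase-promoting complex (APC/C), was higher by 0.93 and 1.05.

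The 6 genes lower in the arc than in the earlier arc were *Ung*, *Hells*, *Vav3*, *Cdc6*, *Qk* and *Fyn*. *Ung*, which removes uracil from DNA, had the largest decrease, from 1.29 to 0.67 (culture 1) and from 1.45 to 0.61 (culture 2). *Hells*, a chromatin helicase that aids DNA methylation, was lower by 0.32 and 0.49, and *Cdc6*, which loads the MCM helicase, by 0.31 and 0.28. The other three encode a guanine nucleotide exchange factor (*Vav3*), an RNA-binding protein (*Qk*) and a Src-family kinase (*Fyn*). The count of 6 became 20 without culture 1 and 10 without culture 2. With a pseudocount of 0.1, which gives low genes more weight, 317 genes were higher and 52 lower, and among cells between the quartiles of total UMIs, where depth is closer, 84 were higher and 13 lower.

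In the comparison with the later arc, 37 genes were higher in the arc (0.347%) and 79 were lower (0.741%). *Ccne1*, cyclin E1, was higher by 0.61 and 0.65 in the 2 cultures, with later-arc levels of 0.39 and 0.32. *Chaf1b*, a subunit of the histone chaperone CAF-1, was higher by 0.52 and 0.59, *Mcm3* by 0.49 and 0.53, and *Pcna*, the sliding clamp of replication, by 0.49 and 0.60. Among the genes lower in the arc, *Cenpa* was at 1.16 in the arc and 2.99 in the later arc in culture 1, and at 1.11 and 2.66 in culture 2. *Ube2c* was lower by 1.55 and 1.66, *Cdc20*, an activator of the APC/C, by 1.49 and 1.20, and *Ccnb1*, cyclin B1, by 1.30 and 1.10. The count of 37 was 59 without culture 1 and 63 without culture 2. With a pseudocount of 0.1 the counts were 218 and 247, and among cells between the quartiles of total UMIs they were 47 and 76.

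Of the 82 genes higher than in the earlier arc, 46 were also lower than in the later arc, 33 had neither call there, and 3 (*Rrm2*, *Pcna* and *Dek*) were higher than in the later arc as well. The comparisons share the cells of the arc.

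**Figure D3:**
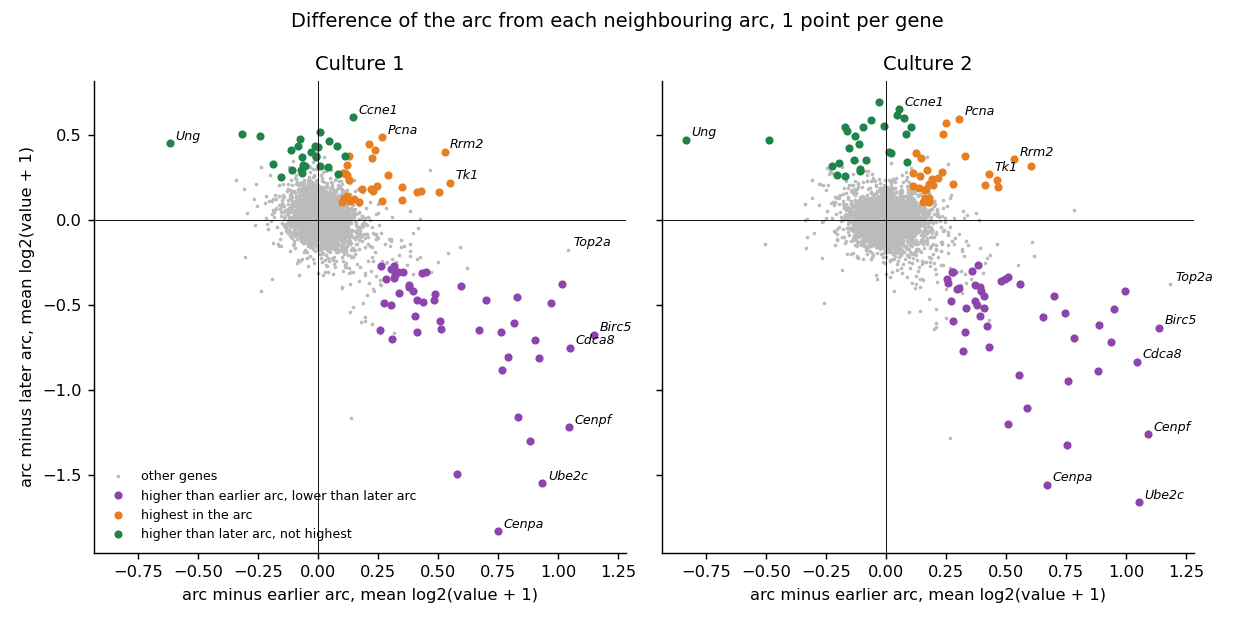
Difference of mean log2(value + 1) between the arc and the earlier arc (x axis) and between the arc and the later arc (y axis), 1 point per gene and 1 panel per culture. Purple points at lower right are the 46 genes between the levels of both neighbours, with *Cenpa* and *Ube2c* farthest down, and orange points are the 29 genes highest in the arc.

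Genes with a local maximum in the arc were counted at a lower threshold, where the arc exceeded both neighbouring arcs by at least 0.1 in both cultures, and 29 genes passed (0.272%). They numbered 80 without culture 1, 59 without culture 2 and 184 with a pseudocount of 0.1. The smallest of the 4 differences ranged from 0.10 to 0.36 over these genes. *Rrm2* led, followed by *Pcna*, which was at 2.53, 2.80 and 2.31 in culture 1 and at 2.58, 2.89 and 2.29 in culture 2. *Dek*, a chromatin protein that binds histones, was at 2.34, 2.63 and 2.37 and at 2.63, 2.96 and 2.58. *Lig1*, which joins Okazaki fragments, was higher than in the earlier arc by 0.22 and 0.25 and than in the later arc by 0.37 and 0.58. The leading 10 also held *Tk1*, the histone acetyltransferase *Hat1*, the clamp loader subunits *Rfc2* and *Rfc4*, the APC/C inhibitor *Fbxo5* and *Esco2*, which acetylates cohesin to hold sister chromatids together. *Esco2* was at 0.43, 0.86 and 0.68 and at 0.48, 0.95 and 0.75. With the bounds moved by 0.05π toward earlier positions, *Tk1*, *Rfc2* and *Esco2* were no longer above the later arc in culture 1, with differences of -0.11, -0.01 and -0.05. Lists of replication and cell-cycle genes held 22 of the 29, and the other 7 were *Bok*, *Meaf6*, *Id3*, *Mthfd2*, *Gps2*, *Dnajc9* and *Dpy30*. Those lists held 206 of all 10666 genes.

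Of the lists by process, that of deoxynucleotide supply had the largest share of local maxima. Of its 9 genes in the table, 5 were highest in the arc (*Rrm2*, *Tk1*, *Dut*, *Tyms* and *Dck*) and 4 were higher than in the earlier arc. Over all genes these shares were 0.272% and 0.769%. *Rrm2* and *Tk1* are markers by which the arc is known, so their high level there was known beforehand. *Dut*, which destroys dUTP, was higher than in the earlier arc by 0.41 and 0.46. *Rrm1*, the large subunit of ribonucleotide reductase, was higher than in the earlier arc by 0.43 and 0.34 and differed from the later arc by 0.01 and 0.03. The median difference of the list to the earlier arc was 0.27 and 0.23, where that of all genes was 0.0017 and 0.00036. To the later arc it was 0.17 and 0.24, where that of all genes was 0.0037 and 0.0015.

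Most genes of origin licensing were higher in the arc than in the later arc and differed little from the earlier arc, whereas several fork genes were highest in the arc. Of 11 licensing genes, 7 were higher than in the later arc and 1, *Cdc6*, was lower than in the earlier arc. Over all genes these shares were 0.347% and 0.0563%. The median difference of the 11 genes was -0.013 and -0.095 to the earlier arc and 0.31 and 0.35 to the later arc. *Gmnn*, which blocks relicensing, was the single member highest in the arc, by 0.24 and 0.15 over the earlier arc and by 0.41 and 0.37 over the later arc. Of 26 fork and polymerase genes, 9 were higher than in the later arc, 1 (*Pcna*) was higher than in the earlier arc, and 8 were highest in the arc. Over all genes these shares were 0.347%, 0.769% and 0.272%. The 8 were *Pcna*, *Gins2*, *Gins4*, *Prim1*, *Rfc2*, *Rfc4*, *Rpa1* and *Lig1*. *Rpa2* and *Rfc3* were higher than in the later arc by 0.44 and 0.55 and by 0.37 and 0.45, with differences to the earlier arc of -0.09 and -0.17 and of -0.07 and -0.11.

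Among 4 genes of DNA methylation and PCNA-bound chromatin, *Pclaf* was highest in the arc, whereas *Uhrf1*, which recruits the maintenance methyltransferase, and *Hells* were higher than in the later arc, by 0.32 and 0.34 and by 0.51 and 0.48. Of 11 histone chaperone genes, 3 (*Chaf1b*, *Dek* and *Hat1*) were higher than in the later arc, and *Dek* and *Hat1* were highest in the arc. For every list in this paragraph, the shares over all genes were 0.347% higher than in the later arc and 0.272% highest in the arc. Of 12 replication checkpoint genes, the 2 higher than in the later arc were *Clspn*, by 0.38 and 0.40, and *Tipin*, by 0.43 and 0.62. None of 18 genes of homologous recombination and the Fanconi pathway was counted in any comparison, where at most 0.769% of all genes were. *Rad54l* and *Rad51ap1* had the largest differences of the 18 to the later arc, 0.23 and 0.19 and 0.20 and 0.19. Of 7 genes of G1 and G1/S cyclins and their kinases, *Ccne1* and *Ccne2* were higher than in the later arc, the latter by 0.48 and 0.50. Of 12 E2F, RB and DREAM genes, *E2f1* was the one counted, higher than in the later arc by 0.30 and 0.32.

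Of 10 genes of condensin and chromosome structure, 5 were higher than in the earlier arc (*Top2a*, *Mki67*, *Smc2*, *Smc4* and *Ncapg*), and *Mki67* and *Smc4* were lower than in the later arc. Over all genes, 0.769% were higher than in the earlier arc, 0.741% lower than in the later arc and 0.272% highest in the arc. *Smc2* and *Smc4*, the ATPase subunits of condensin, were higher than in the earlier arc by 0.59 and 0.61 and by 0.60 and 0.56. Against the later arc *Smc2* differed by -0.16 and -0.12 and *Smc4* by -0.39 and -0.37. *Ncapd3*, a subunit of condensin II, was highest in the arc by 0.12 and 0.19 over the earlier arc and 0.14 and 0.21 over the later arc. Among 10 cohesin genes, *Esco2* and *Rad21* were higher than in the earlier arc, the latter by 0.38 and 0.37, and *Rad21* was lower than in the later arc by 0.39 and 0.47. Of 17 CENP genes, 5 were higher than in the earlier arc (*Cenpa*, *Cenpe*, *Cenpf*, *Cenpm* and *Cenpq*), 4 were lower than in the later arc, and *Cenpk* and *Cenpu* were highest in the arc. *Hmgb1*, *Hmgb2*, *Hmgb3* and the histone variant gene *H2afv* were lower than in the later arc, 4 of the 6 members of their list in the table.

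Of 24 kinesin and spindle genes, 14 were higher than in the earlier arc and 18 lower than in the later arc, 12 of them in both counts, with median differences of 0.33 and 0.28 and of -0.40 and -0.39. Over all genes, 0.769% were higher than in the earlier arc and 0.741% lower than in the later arc. Lists of cell-cycle genes hold the kind of gene that sets θ, so higher shares in them are in part built in. *Arl6ip1*, in the kinesin and spindle list for its mitotic expression, was at 2.29, 2.43 and 3.59 in culture 1 and at 1.90, 2.16 and 3.44 in culture 2. Of 15 kinase, passenger and spindle checkpoint genes, 12 were higher than in the earlier arc and 7 lower than in the later arc, and these 7 were in both counts. *Aurkb* was higher than in the earlier arc by 0.54 and 0.55 and differed from the later arc by -0.19 and -0.26, and *Aurka* was higher than in the earlier arc by 0.51 and 0.43 and lower than in the later arc by 0.64 and 0.74. Of 8 genes of A and B cyclins with CDK1 and its regulators, 4 were higher than in the earlier arc and 6 lower than in the later arc, with 4 in both counts. *Cdk1* was higher by 0.83 and 0.75 and *Cks2*, its small binding partner, by the same amounts to 2 decimals, and against the later arc they were lower by 0.45 and 0.54 and by 1.16 and 1.32. *Lmnb1*, a nuclear lamin, and *Stmn1*, which destabilises microtubules, were higher than in the earlier arc by 0.31 and 0.30 and by 0.44 and 0.39.

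**Figure D4:**
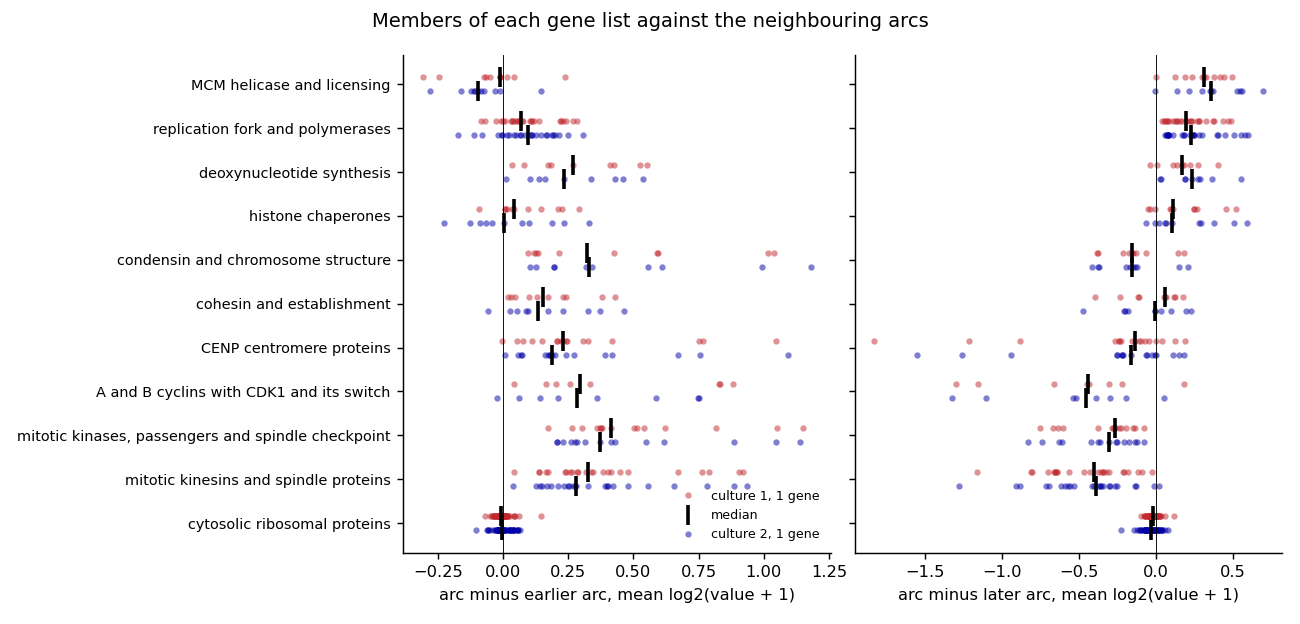
Difference of mean log2(value + 1) between the arc and the earlier arc (left x axis) and the later arc (right x axis), 1 point per gene, red for culture 1 and blue for culture 2, with black bars at list medians and lists on the y axis. Licensing genes sat above the later arc with medians of 0.31 and 0.35, kinesin and spindle genes sat below it with medians of -0.40 and -0.39, and ribosomal protein genes lay near 0 in both panels.

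Genes outside the lists made up 24 of the 82 that were higher than in the earlier arc and 8 of the 37 that were higher than in the later arc, and those named in this paragraph were chosen after their values were seen. Most of the 10666 genes were outside the lists. *Cdkn1a*, the CDK inhibitor p21, was at 2.22, 2.68 and 2.38 in culture 1 and at 2.07, 2.85 and 2.79 in culture 2. *Cdkn2c*, the CDK inhibitor p18, was higher than in the earlier arc by 0.32 and 0.51 and lower than in the later arc by 0.26 and 0.33. *H3f3b*, which encodes the replication-independent histone H3.3, was higher than in the earlier arc by 0.47 and 0.46. *Slbp*, which binds replication-dependent histone mRNA, was higher than in the later arc by 0.38 and 0.35, and *Atad2* was higher by 0.44 and 0.60.

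The arc is also ordered within itself. Between its first and last sub-arc, 54 genes were higher in the last by at least 0.25 in both cultures (0.506%) and 21 were lower (0.197%). *Ube2c* was at 0.88 in the first, 1.67 in the third and 2.09 in the last of the 4 sub-arcs in culture 1, and at 0.95, 1.84 and 2.23 there in culture 2. Over all 4, *Cenpa* went through 0.59, 0.81, 1.20 and 1.86 and through 0.66, 0.89, 1.18 and 1.73. *Ung* went the other way, through 1.03, 0.85, 0.53 and 0.37 and through 1.04, 0.77, 0.33 and 0.28. *Mcm3* was at 1.73, 1.55, 1.37 and 1.22 and at 1.72, 1.46, 1.43 and 1.05. *Rrm2* stayed within a narrower range, at 3.13, 3.18, 3.24 and 3.15 and at 3.05, 3.04, 3.25 and 2.77. *Pclaf* was at 3.51, 3.60, 3.66 and 3.66 and at 3.83, 3.97, 4.19 and 3.88. Of the 24 kinesin and spindle genes, 12 were higher in the last sub-arc, and of the 11 licensing genes, 4 were lower. Cells called S by Seurat within the arc had a median position of 0.834π and 0.826π and a *Top2a* level of 2.33 and 2.62. Cells called G2M had a median position of 0.955π and 0.953π and a *Top2a* level of 2.88 and 3.07. The stages and θ both come from expression, and *Top2a* has a high weight in θ. These values are therefore no independent check of the order within the arc.

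**Figure D5:**
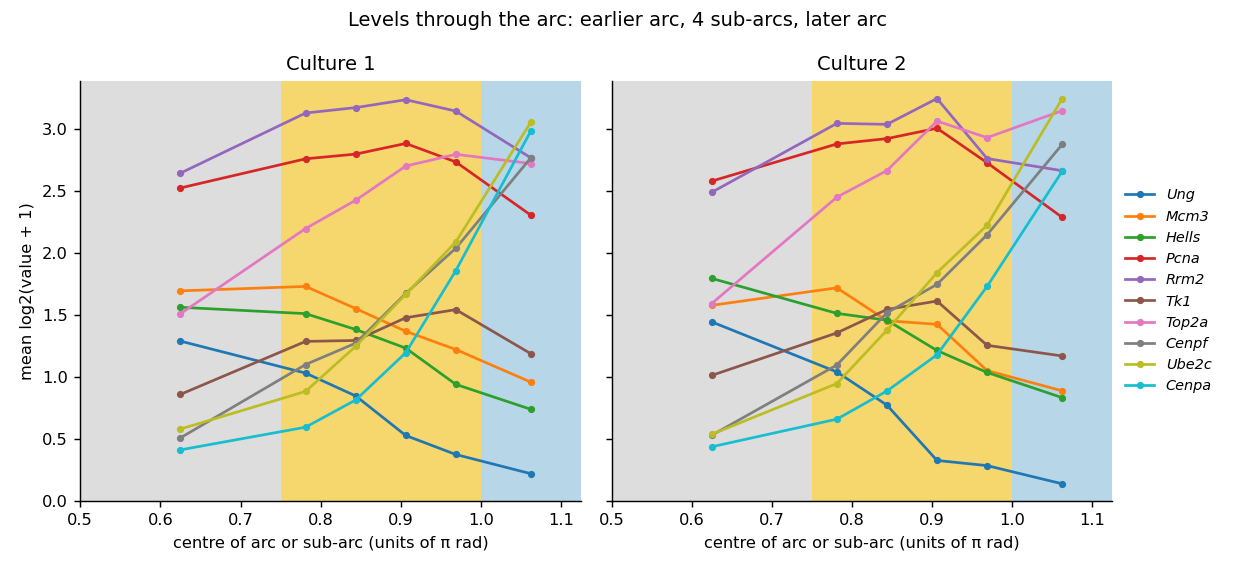
Mean log2(value + 1) of 10 genes (y axis) at the centres of the earlier arc, the 4 sub-arcs and the later arc in units of π rad (x axis), 1 panel per culture. *Ung*, *Mcm3* and *Hells* were lower in the last sub-arc than in the first, *Cenpf*, *Ube2c* and *Cenpa* were higher, and *Pcna* had its highest sub-arc level in the third, at 2.89 and 3.01.

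The listed cell-cycle genes made up a small share of all values. The replication, repair, cell-cycle regulator, chromatin and mitosis lists held 206 genes. Together these genes held 3.24% of the summed values in the arc in culture 1 and 3.37% in culture 2. Among them were the G1 cyclin and kinase list, at 0.392% and 0.344%, and the HMG and histone list, at 0.584% and 0.576%. The 206 genes held 2.52% and 2.67% in the earlier arc, 3.84% and 3.83% in the later arc, and 1.16% and 1.22% in the background cells. In the background cells the G1 cyclin and kinase list held 0.433% and 0.464%, and the HMG and histone list 0.295% and 0.318%. The 59 cytosolic ribosomal protein genes held 22.0% and 23.7% of the values in the arc and 22.1% and 23.7% in the earlier arc. In the lists of 59 ribosomal protein, 75 oxidative phosphorylation and 35 proteasome genes and of 11 ribosome biogenesis genes, none was counted as higher or lower in either comparison, where at most 0.769% of all genes were. Since values were scaled to a near-constant total per cell, they show the make-up of the RNA and not its amount.

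Markers of cell identity were checked in the same cells. In the arc *Fabp7* and *Vim*, genes of radial glia, were detected in 100% and 100% and in 99.8% and 100% of cells, *Nes* in 96.6% and 91.1%, and *Pax6*, a factor of dorsal progenitors, in 26.1% and 37.8%. *Olig2*, a factor of oligodendrocyte and ventral progenitors, was detected in 96.8% and 89.8%, and the neuronal genes *Dcx* and *Gad1* in 7.75% and 3.10% and in 3.32% and 0.547%. The summed level of the 7 radial glia genes was 18.2 and 17.4 in the arc and lay between 17.4 and 18.6 in all 3 arcs of both cultures. None of the 7 was counted in any comparison, where at most 0.769% of all genes were counted. The 3 astroglial genes in the table were not counted either. The 2 neuronal genes in the table were not counted, but their summed level was below the counting threshold in all 3 arcs. It was 0.094 and 0.077 in the earlier arc, 0.085 and 0.067 in the arc and 0.11 and 0.036 in the later arc. A fall large enough to be counted was therefore not possible for these 2 genes, and whether they changed was not tested. Of 4 oligodendrocyte progenitor genes, with a median difference to the later arc of -0.044 and 0.012, *Olig2* alone was counted, as lower in the arc than in the later arc by 0.42 and 0.48. It was at 2.37, 2.13 and 2.54 in culture 1 and at 2.34, 2.08 and 2.56 in culture 2. The 7 genes listed for microglia and blood and the 5 for endothelial and mural cells were absent from the table, so they could not be analysed. The table held 7 of 10 listed radial glia genes, 4 of 5 oligodendrocyte progenitor, 2 of 11 neuronal and 3 of 6 astroglial genes. The part of cell identity in the results was not tested.

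Promoter windows were found for 24 of the 29 genes highest in the arc, 30 of the 37 higher than in the later arc, and 65 of the 79 lower than in the later arc. A CHR match was in 25%, 20% and 66.2% of these genes and CCAAT in 54.2%, 66.7% and 87.7%. An E2F-like match was in 37.5%, 40% and 16.9%. Among the 8318 genes of the expression table with a window, these shares were 16.1%, 43.4% and 15.4%. The shares describe the groups and were not tested.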

How the data were processed

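Single-cell RNA-seq was analysed in 2 replicate cultures of wild-type neurospheres. By the methods and the submitters' processing notes (alevin, Salmon 1.3.0, Seurat 3.2.2, GRCm38), the authors counted spliced reads per cell, dropped cells with outlying UMIs, gene numbers, doublet scores or mitochondrial content, and dropped mitochondrial genes and genes seen in few cells. The kit is version 2 in the labels and version 3 in the methods. The deposited expression values are a normalized signal on a linear scale, summing to nearly the same total in every cell (a coefficient of variation of 0.536% and 0.542% over the cells of the arc). They are not counts. A per-gene estimate of the value of a single count differed by over 10% between cultures for 67.1% of 2926 genes compared. That estimate does not by itself show whether counts could be recovered. Thinning to a fixed depth was not done, and levels were compared only within a culture. Total UMIs are deposited as sums of estimated counts per cell. The deposited position in radians and the stages of SchwabeCC, cyclone and Seurat are other values, and which expression matrix gave the position is not stated in the sources used here.

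Means of log2(value + 1) were taken per arc and culture over 10666 genes, of which 10662 had a symbol, with Python 3.11.15, numpy 2.4.6, pandas 2.3.3 and scipy 1.17.1. A difference of at least 0.25 with the same sign in both cultures was counted. The counting against the earlier arc was tested on simulated data, in which values were permuted among the cells of a culture and known folds added. It called 68.5% of 89 genes raised 1.5-fold, 98.9% of 89 raised 2-fold and 0 of 1982 left unchanged. Folds were added only to genes above a minimum mean value, so changes of low genes were not tested, and all low genes were among those left unchanged. Permuting also removed the link of the values to θ and to total UMIs. The check therefore does not give the rate of false counts in the data themselves. With 2 cultures the smallest two-sided p of an exact sign-flip permutation test is 0.5, so no test was run. The genes named are the markers, the 10 largest differences in each direction and comparison, the 10 genes highest in the arc and members of lists by role. The members, the lists and the rules were chosen with earlier results of these data known. Promoter windows are from RefSeq. The alternatives were other thresholds, another pseudocount, a filter on low genes, a range of depth, each culture left out and shifted or wider arcs. The authors' table held no comparison of its own, and no cell was removed.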

Additional observations from a re-analysis of the deposited data

How the results depend on the processing

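No paired analysis was possible because the labels give 1 group of samples, and arcs were compared within each culture throughout. In the order higher than the earlier arc (82), lower than it (6), higher than the later arc (37), lower than it (79) and highest in the arc (29), the counts were 26, 1, 2, 28 and 7 with doubled thresholds and 156, 30, 112, 144 and 105 with thresholds of 0.15, or 0.05 for the last. They were 317, 52, 218, 247 and 184 with log2(value + 0.1) and 254, 142, 374, 245 and 169 with the log2 of the mean value plus 0.1. With a single culture they ranged from 99 to 104, 10 to 20, 59 to 63, 101 to 104 and 59 to 80. Among cells between the quartiles of total UMIs, 13 genes were lower than in the earlier arc, and with bounds moved by 0.05π toward earlier positions, 23 were higher than in the later arc. With a later arc as wide as the others, which does not enter the comparison with the earlier arc, 56 were higher than in it. In these comparisons of counts the cause was not tested. The mean UMI difference to the later arc was -0.038 and turned to 0.019 with bounds moved by 0.05π toward later positions and to 0.054 with the wider later arc, and over single cultures it ranged from -0.094 to 0.019. The excess of UMIs over the earlier arc ranged from 0.14 to 0.20 over single cultures, and the share of cells in the arc from 7.77% to 17.3%. Of 75 alternative values, 43 were counts within a factor of 1.5 or other values that kept their sign within the SD of the 2 cultures. Another 29 moved further and 3 changed sign. For UMIs and cell shares, leaving out 1 culture shifts the mean by less than that SD by construction. Of 58 pairs of a named gene and a neighbouring arc, each checked under the alternatives of up to 7 that bear on it (376 checks), 373 kept the direction in both cultures, and the exceptions were *Tk1*, *Rfc2* and *Esco2* against the later arc. The removal of cells over 2 times the median UMIs was chosen after seeing the data. Values of genes detected in few cells are limited by depth, which was lower in culture 2.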
